A study of Mus musculus with 20 samples.

Results

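The 62 genes here were chosen by symbol, and most encode enzymes and partner proteins that remove reactive oxygen species or handle glutathione and thioredoxin. They are the protein-coding features whose symbol starts with Gpx, Prdx, Txn or Gst, together with Sod1, Sod2, Sod3, Cat, Gsr, Gclc, Gclm, Gss, Nqo1 and Hmox1, present in both count tables, out of 16126 protein-coding features and 54796 features of any kind in both. By role they were 22 glutathione S-transferases, 6 glutathione peroxidases, 4 genes of glutathione synthesis and recycling, 7 peroxiredoxins, 4 superoxide dismutases and catalase, 9 thioredoxins with their reductases and relatives, 8 thioredoxin-domain proteins, and the quinone reductase and heme oxygenase pair. Gpx7 and Txndc8 had rows in 1 table only, with summed counts of 3.0 and 2.83, and were not included.

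The RNA was that of cauda epididymosomes of 9-month-old male mice, vesicles shed into the lumen of the distal epididymis, where sperm are stored. The MSUS group (animals 2, 4, 6, 8 and 14) comprised 5 males whose litters had unpredictable maternal separation, 3 h a day over the first 14 days of life, while the dams met forced swim or restraint at unpredictable times. The Control group (animals 3, 5, 7, 9 and 11) comprised 5 males from litters left undisturbed. Small RNA libraries of these 10 preparations were read in 2 runs, without and with a size selection that enriches for miRNAs, and each run has its own count table. The sources name neither strain nor litter, and p-values therefore speak only of variation among the animals sampled. A preparation pools vesicles of all cells, so that fewer vesicles carrying a transcript and less RNA per vesicle cannot be told apart.

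Reactive oxygen species are removed in steps: superoxide dismutases turn superoxide into hydrogen peroxide, and catalase, glutathione peroxidases and peroxiredoxins reduce the peroxide. Glutathione peroxidases draw electrons from glutathione and peroxiredoxins from thioredoxin, both recycled by reductases that use NADPH, while glutathione S-transferases couple glutathione to electrophiles. In the epididymis such enzymes are made by the epithelium and in part released into the lumen, where sperm membranes are sensitive to peroxidation, and many of the genes respond to the transcription factor NRF2 (gene Nfe2l2) at antioxidant response elements.

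The core of that element, written TGACNNNGC, was searched on both strands in the 300 bases around each RefSeq start site (250 bases before to 50 after, GRCm38.p6). An AP-1 site of the form TGACTCA can overlap its first part. The core lay in a window of 10 of the 52 members for which a promoter sequence was at hand (19.2%). It lay in a window of 14 of 58 other genes of the pathway (24.1%) and of 2596 of 17492 protein-coding genes (14.8%). No sequence was at hand for Gclc, Gsr, Hmox1, Gsta4, Gstt2, Prdx6, Prdx6b, Sod3, Txnl1 and Txnl4a, which were not searched. The stretches of 4 members named in the results below are printed, though no result below uses the motif. Prdx1 and Gstm7 are among the most abundant members. Txnrd1 had the smallest p of the members in the MSUS contrast of the selected table. Gclm encodes a subunit of the enzyme that limits glutathione synthesis. The core lay in 1 of 3 windows of Txnrd1 and in 1 of 2 of Gstm7. Capitals mark the 9 bases of the match, which in Gstm7 reads on the gene's strand and in the others on the opposite one.
Prdx1 (chr4:116685436-116685504, plus strand): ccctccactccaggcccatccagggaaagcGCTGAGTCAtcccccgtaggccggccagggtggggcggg
Gstm7 (chr3:107931705-107931773, minus strand): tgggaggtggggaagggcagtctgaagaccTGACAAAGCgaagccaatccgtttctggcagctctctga
Txnrd1 (chr10:82859084-82859152, plus strand): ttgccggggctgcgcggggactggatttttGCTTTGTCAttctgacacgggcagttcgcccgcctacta
Gclm (chr3:122245393-122245461, plus strand): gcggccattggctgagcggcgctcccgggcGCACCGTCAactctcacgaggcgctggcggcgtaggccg
The windows of Gpx3, Txnip, Txn1, Gstm1 and Gstm2, which are among the most abundant members, did not hold these letters, which says only that they are not in these windows, and that of Sod1 did.

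A library held 215231 to 871461 counts in the run labelled as lacking size selection, called the unselected table below, and 1872084 to 3647956 counts in the other, called the selected table. The contents go against these labels, since miRNAs took 52.4 to 72.2% of counts in the unselected and 10.9 to 17.0% in the selected table, and any direction between the tables refers to the labels. Protein-coding features took 5.89 to 9.44% of counts in MSUS and 9.40 to 13.6% in Control libraries of the unselected table, and 7.48 to 25.2% in MSUS and 19.7 to 31.6% in Control libraries of the selected table. This share was lower in MSUS by its median in both tables, and its part in the comparisons of MSUS with Control was not tested. Control 9, Control 11 and MSUS 14 stood apart in the selected table with 31.6, 25.8 and 25.2%, against 7.48 to 20.8% in the other 7 libraries. Of 25 markers of epididymal epithelium 23 were detected in the selected table, with Lcn9 and Spint4 at 0, and their sum ran from 11169 to 16540 CPM (counts scaled to a common library size) in MSUS and from 15299 to 21079 CPM in Control libraries. Most of that sum was Akr1b7, with 7677 to 13591 CPM in MSUS and 11184 to 17767 CPM in Control libraries (log2 fold change −0.41, not called), while Crisp1 was at −0.04, Adam7 at +0.14 and Ces5a at +0.27. Of the 8 tested markers the others were Spink8, Clu, Defb42 and Npc2. Spink8 ran from 416 to 713 CPM in MSUS and from 509 to 857 CPM in Control libraries. In the same order, Clu ran from 132 to 438 and 257 to 458 CPM. Defb42 ran from 20.6 to 46.0 and 32.3 to 51.4 CPM, and Npc2 from 22.8 to 44.9 and 22.3 to 33.8 CPM. The 15 sperm and spermatid markers were all detected and summed to 422 to 661 CPM in MSUS and 299 to 477 CPM in Control libraries, and the 12 muscle and stroma markers to 521 to 1216 CPM and 398 to 783 CPM. The part of these markers in the member values below was not tested.

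Most of the antioxidant enzymes had an estimated count above 0 in every preparation of the selected table. Before rounding, 29 of the 62 members were above 0 in all 10 unselected libraries and 57 in all 10 selected ones. In neither table was a member at 0 throughout. Fractions of a count are included here, such as 0.0588 for Txndc9 in Control 7 of the unselected table. Another was 0.2 for Gpx6 in Control 5 of the selected table. After rounding, Prdx4 was at 0 in all 10 unselected libraries, and Gpx6 in MSUS 2, MSUS 8 and Control 5 of the selected table. Summed counts of the members were 1.28 to 1.61% of protein-coding counts in MSUS and 1.21 to 1.54% in Control libraries of the unselected table. In the selected one these sums were 1.5 to 1.74% and 1.37 to 1.73%, so that the groups overlapped in both. Glutathione S-transferases made up 33.4% of the members' mean CPM in the selected table, glutathione peroxidases 21.4% and peroxiredoxins 16%. Thioredoxins with their reductases and relatives, of which Txnip was highest at 176 CPM on average, made up 14.5%. Superoxide dismutases with catalase made up 8.55%. Thioredoxin-domain proteins held 2.76%, glutathione synthesis and recycling 3.08%, and the quinone reductase and heme oxygenase 0.341%. The order of the first pair was the other way in the unselected table, with glutathione peroxidases at 39.4% and S-transferases at 26.4%.

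Gpx3, the glutathione peroxidase of extracellular fluids (chromosome 11, 54902453 to 54910377 in GRCm38), was the most abundant member in both tables. Per kb of exon its level averaged 306 CPM in the selected table (range 238 to 376 over 10 libraries), and it lay above the next member in 10 of 10 libraries. Gstm1, a mu-class glutathione S-transferase, averaged 188 CPM per kb and the cytosolic superoxide dismutase Sod1 187 CPM per kb, and Gstm1 exceeded Sod1 in 3 of 10 libraries only, so their order is not settled. Gstm2 of the same class followed at 156 CPM per kb and cytosolic thioredoxin Txn1 at 111. Txn1 exceeded Gstm7, at 109, in 6 of 10 libraries, and Prdx1 at 78.7 exceeded Prdx5 at 76.8 in 6 of 10. In the unselected table Gpx3 was at 260 CPM per kb, with Gstm2 at 62.7, Gstm1 at 60.6 and Sod1 at 55.1. A small RNA library captures short fragments, so this is an order of fragments per exon length.

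**Figure D1:**
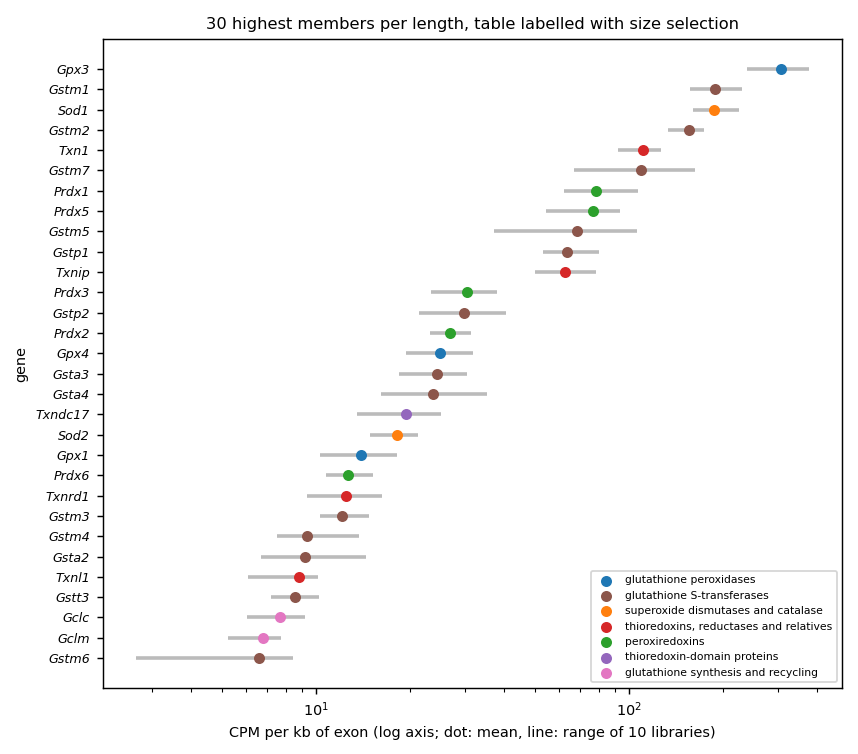
Level of the 30 members highest per length in the selected table, as CPM per kb of exon on a log axis, with the mean as a dot and the range of 10 libraries as a line, coloured by role. Gpx3 stands highest at 306 CPM per kb, and Gstm1, Sod1 and Gstm2 follow between 156 and 188.

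Low members included genes with known places in the male tract. Gpx5, a glutathione peroxidase that in the mouse is secreted by the epididymis, summed to 24.2 counts over the 10 libraries of the unselected and 172 over those of the selected table, and Gpx6, its neighbour on chromosome 13, to 4.42 and 11.8. Txndc2, a thioredoxin-domain protein of spermatids, had 5.00 and 40.0 counts, and the heme oxygenase Hmox1, which NRF2 and heme induce, 3.00 and 53.2. Prdx4, the peroxiredoxin of the secretory pathway, had 0.50 and 33.0. No fold is given for members below the filter on low counts.

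The first comparison asks whether stress in early life changed what the vesicles of the adult carried of these transcripts. In the selected table no tested member passed the test between MSUS and Control. The edgeR quasi-likelihood test called 0 of 43 tested members at an adjusted p under 0.05, as it did 0 of 10998 features (0%), while DESeq2 called 32 features higher and 1 lower, 0 of them members. At an unadjusted p under 0.05 there were 0 members higher and 2 lower, against 3.45% and 2.37% of all features. Of the 43 members 21 had a positive log2 fold change, and the median was −0.02 beside −0.00 for all features, of which 49.6% were positive. For 0 members did the 2 groups fail to overlap, against 0.391% of features higher and 0.482% lower in MSUS. Scaled by library size alone, without TMM factors, the median of all features moved to −0.57 and that of the members to −0.57, so the signs below hold relative to the other features.

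Among the glutathione peroxidases, 4 of 4 tested members had a positive log2 fold change (median +0.11), though 0 of 4 with library size only, where 4 of 4 lay above the median of all features. Gpx3 had 625, 506, 575, 456 and 681 CPM in the MSUS libraries, against 476, 592, 432, 641 and 564 CPM in the Control libraries, in the order of animals given above. It averaged 568 ± 90.1 CPM in MSUS and 541 ± 85.5 CPM in Control libraries (SD, n = 5 each), and the groups overlapped almost fully (log2 fold change +0.07, SE 0.18, adjusted p = 1.00 by edgeR). Gpx5 had 8.46, 4.81, 5.01, 4.49 and 8.72 CPM in the MSUS libraries, against 6.29, 6.18, 1.90, 4.71 and 6.42 CPM in the Control libraries. Its highest values were those of MSUS 14 and MSUS 2 and its lowest that of Control 7, with 5 to 35.8 counts behind a value (log2 fold change +0.45, SE 0.27, adjusted p = 0.881 by edgeR). Gpx1, the cytosolic glutathione peroxidase, was at +0.11 and Gpx4, which reduces lipid hydroperoxides in membranes and is abundant in sperm mitochondria, at +0.11, and neither passed the test. Of the sperm and spermatid markers 14 of 14 tested were positive (median +0.50, 0 called), and their part in the value of Gpx4 was not tested.

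Log2 fold changes of the superoxide dismutases and catalase lay within their SE of 0. Sod1 had 132, 144, 109, 115 and 118 CPM in the MSUS libraries, against 125, 103, 107, 106 and 138 CPM in the Control libraries (log2 fold change +0.09, SE 0.13, adjusted p = 0.985 by edgeR). MSUS 4 and Control 11 were highest, and the ranges overlapped. Mitochondrial Sod2 was at −0.06 and Cat, which breaks hydrogen peroxide down directly, at +0.06.

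Of the 5 tested peroxiredoxins 2 were positive, with 1 above the median of all features when scaled by library size only. Prdx1, a cytosolic peroxiredoxin (chromosome 4, 116685544 to 116700822), had 237, 170.3, 197, 165 and 265 CPM in the MSUS libraries, against 216, 182, 166, 285 and 218 CPM in the Control libraries (log2 fold change −0.04, SE 0.18, adjusted p = 1.00 by edgeR). Its high libraries were Control 9, MSUS 14 and MSUS 2, so both groups held high and low animals. Prdx5, found in mitochondria and peroxisomes, was at +0.14 and Prdx6, which also has phospholipase activity, at −0.18, with adjusted p values of 0.954 and 0.881 by edgeR.

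Within the thioredoxin system, Txn1 had 133, 106, 108, 101 and 132 CPM in the MSUS libraries, against 126, 105, 97.1, 132 and 128 CPM in the Control libraries (log2 fold change −0.02, SE 0.14, adjusted p = 1.00 by edgeR). Txnip, a protein that binds and inhibits thioredoxin, had 153, 221, 158, 212 and 142 CPM in the MSUS libraries, against 202, 157, 203, 148 and 168 CPM in the Control libraries (log2 fold change +0.01, SE 0.16, adjusted p = 1.00 by edgeR). In both genes the ranges of the groups overlapped nearly completely. Txnrd1, the cytosolic reductase that recycles thioredoxin, had 39.0, 50.8, 38.2, 53.9 and 45.0 CPM in the MSUS libraries, against 51.6, 66.0, 63.2, 49.1 and 51.1 CPM in the Control libraries. Its 2 highest values were those of Control 5 and Control 7 and its 2 lowest those of MSUS 6 and MSUS 2, but MSUS 8 and MSUS 4 lay within the Control range. It averaged 45.4 ± 6.96 CPM in MSUS and 56.2 ± 7.79 CPM in Control libraries (SD, n = 5 each), with the smallest p of the members (edgeR, log2 fold change −0.31, SE 0.13, adjusted p = 0.837), and in the unselected table where it was below the filter and not tested, its means were 22.6 ± 10.3 and 18.3 ± 6.6 CPM (MSUS and Control, SD, n = 5 each).

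The thioredoxin-domain proteins were the role group with the lowest median log2 fold change (−0.34). Of the 8 members 6 were tested and 6 of 6 were negative, also with RLE factors or protein-coding features only. Of these 0 passed the test, and 49.6% of all features were positive. The untested Txndc2 averaged 1.70 CPM in MSUS and 1.17 CPM in Control libraries, and the untested Txndc12 2.73 and 3.50 CPM. With library size only 0 of 6 lay above the median of all features. Txndc9, a cochaperone partner in protein folding, had 16.6, 14.4, 20.03, 20.6 and 17.7 CPM in the MSUS libraries, against 23.8, 22.8, 18.7, 18.9 and 24.5 CPM in the Control libraries (log2 fold change −0.29, SE 0.13, adjusted p = 0.859 by edgeR). Txndc5, a protein disulfide isomerase of the endoplasmic reticulum, had 10.3, 12.4, 6.26, 12.6 and 10.9 CPM in the MSUS libraries, against 15.7, 11.4, 13.0, 17.2 and 10.4 CPM in the Control libraries (log2 fold change −0.39, SE 0.19, adjusted p = 0.875 by edgeR). Control 9 and Control 3 were its highest libraries and MSUS 6 its lowest, and the other values of both groups lay between 10.3 and 13.0 CPM. Txndc15 was at −0.55 (SE 0.30), Txndc11 at −0.41 (SE 0.19), Txndc17 at −0.24 (SE 0.17) and Txndc16 at −0.19 (SE 0.16). Most of these rested on few counts, with 5.39 and 4.89 CPM on average for Txndc11 and Txndc15. In the unselected table the group was below the filter and not tested. Txndc9 averaged 6.49 ± 4.06 CPM in MSUS and 4.79 ± 3.50 CPM in Control libraries there (SD, n = 5 each). The means of Txndc5 were 11.8 ± 1.55 and 14.6 ± 11.2 CPM.

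Glutathione S-transferases, the largest group, had 8 of 14 tested members positive, 0 of 14 with library size only and 8 of 14 above the median of all features there. The abundant Gstm1 had 270.4, 277, 247, 219 and 252 CPM in the MSUS libraries, against 251, 222, 282, 321 and 275 CPM in the Control libraries (log2 fold change −0.09, SE 0.15, adjusted p = 0.988 by edgeR). Gstm2 had 207, 159, 182, 187 and 204 CPM in the MSUS libraries, against 179, 179.6, 185, 189 and 187 CPM in the Control libraries (log2 fold change +0.03, SE 0.13, adjusted p = 1.00 by edgeR), and its Control libraries spanned only 179 to 189 CPM while MSUS spanned 159 to 207. Gstm7 had 259, 135, 157, 164 and 209 CPM in the MSUS libraries, against 167, 107, 124, 257 and 172 CPM in the Control libraries (log2 fold change +0.16, SE 0.23, adjusted p = 0.986 by edgeR). MSUS 2 and Control 9 were its highest animals, and the groups overlapped over most of their range.

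The pi-class genes Gstp1 and Gstp2 share 63.0% of their 20-base stretches with other genes, mostly each other, and their counts are uncertain where reads fit both. Gstp1 had 64.8, 52.9, 53.2, 62.8 and 71.9 CPM in the MSUS libraries, against 51.2, 47.5, 49.9, 60.3 and 55.4 CPM in the Control libraries (log2 fold change +0.21, SE 0.12, adjusted p = 0.877 by edgeR). Gstp2 had 32.4, 27.5, 28.8, 32.3 and 40.7 CPM in the MSUS libraries, against 26.9, 26.6, 21.3, 34.1 and 27.5 CPM in the Control libraries (log2 fold change +0.25, SE 0.14, adjusted p = 0.877 by edgeR). MSUS 14 was the highest library for both genes, and Control 9 lay among the MSUS values. The testis-rich Gstm5 was at +0.33 (SE 0.21) and Gsta4, which acts on lipid peroxidation products, at −0.27 (SE 0.21), and neither passed.

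Genes of glutathione synthesis and recycling gave 3 of 4 positive, 0 of 4 with library size only and 3 of 4 above the median of all features there. Gclm, the modifier subunit of the enzyme that limits glutathione synthesis, had 39.7, 30.9, 42.6, 42.2 and 35.1 CPM in the MSUS libraries, against 45.8, 37.1, 40.8, 42.3 and 44.3 CPM in the Control libraries (log2 fold change −0.15, SE 0.11, adjusted p = 0.907 by edgeR), with MSUS 4 and MSUS 14 below the Control range. The catalytic subunit Gclc was at +0.14, glutathione synthetase Gss at +0.23 and glutathione reductase Gsr at +0.08. Nqo1, a quinone reductase that NRF2 induces, had 8.46, 6.18, 6.26, 6.28 and 7.75 CPM in the MSUS libraries, against 5.84, 9.98, 10.3, 8.13 and 6.42 CPM in the Control libraries (log2 fold change −0.12, SE 0.19, adjusted p = 0.996 by edgeR).

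**Figure D2:**
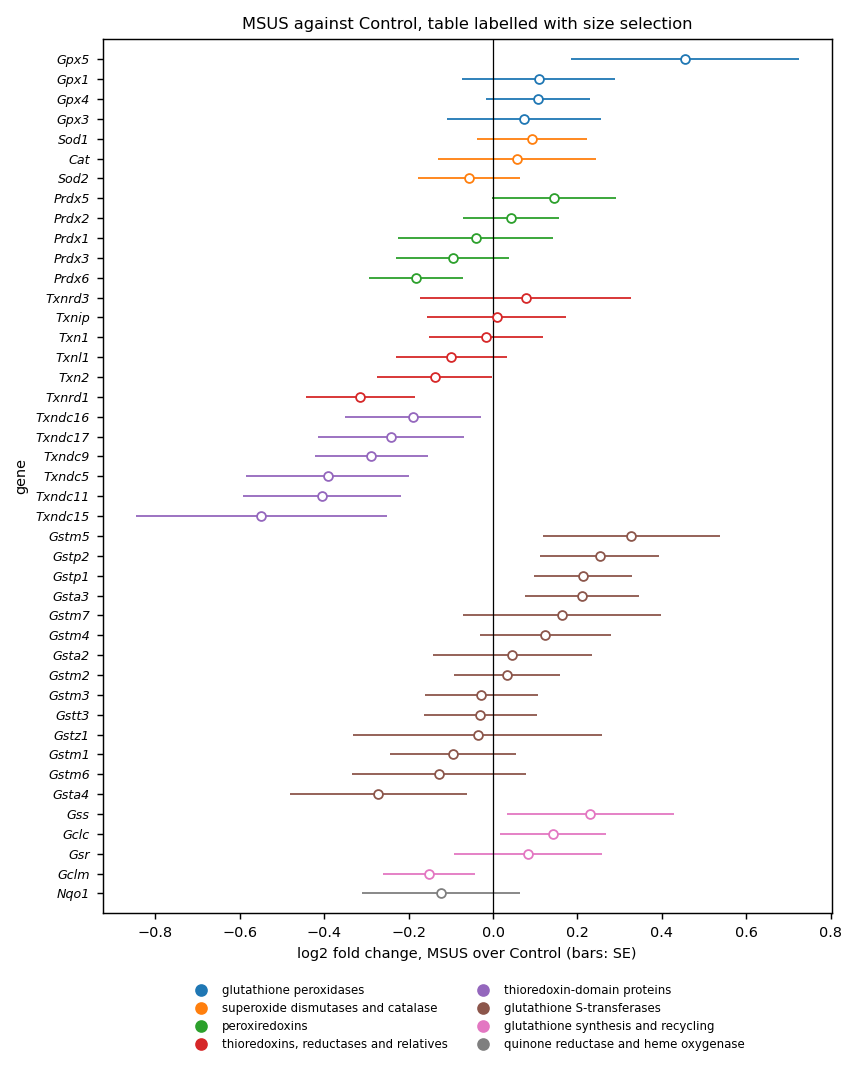
Log2 fold change of MSUS over Control in the selected table for the 43 tested members, with 1 SE as a bar, ordered by role. Open circles mark that 0 of 43 passed an adjusted p of 0.05, and the 6 thioredoxin-domain proteins lie left of 0 while the 4 glutathione peroxidases lie right of it.

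**Figure D3:**
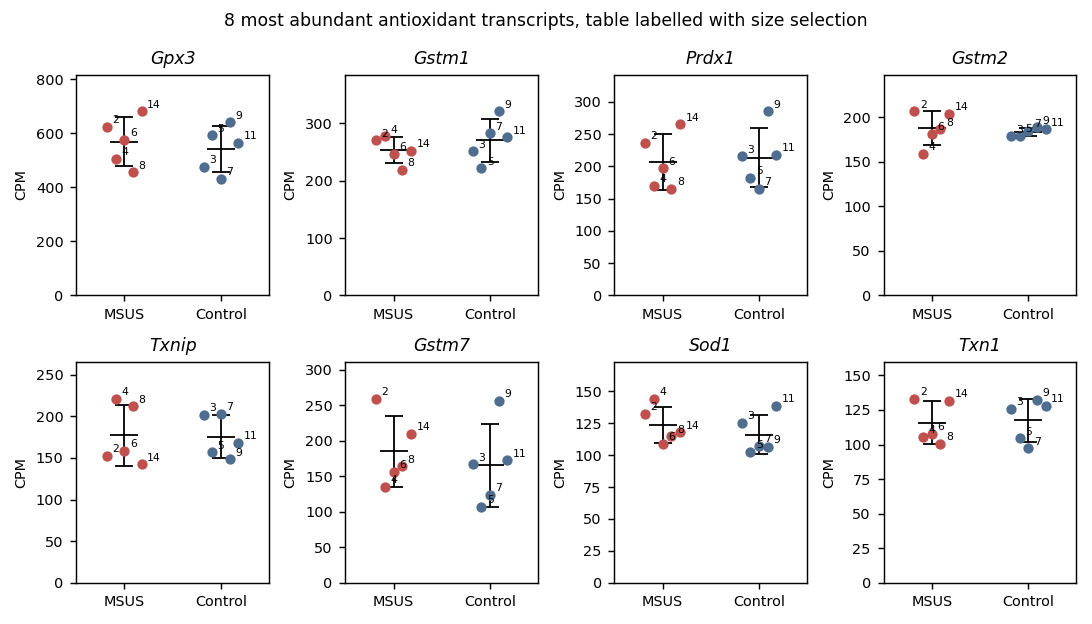
CPM of the 8 most abundant members in the selected table, 1 point per library labelled with its animal, MSUS left and Control right, with the mean and SD of 5 libraries as bars. The groups overlap in each panel, and Gpx3 is highest at 568 and 541 CPM on average in MSUS and Control.

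In the unselected table, at lower depth, 10 members could be tested and 0 passed, as did 0 of 1075 features (0%) by edgeR and 0 by DESeq2. At an unadjusted p under 0.05 there were 0 members, against 3.81% of features higher and 4% lower in MSUS. Of the 10 members 2 were positive (median −0.23), beside 50.6% of all features (median +0.01) and 106 of 517 protein-coding features (median −0.20), and the groups overlapped for each of them, against 0.186% of features higher and 1.3% lower. When protein-coding features alone were scaled and tested, the member median became +0.02, with 6 of 11 tested members above the median of those features.

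Gpx3 had 607, 387, 425, 362 and 576 CPM in the MSUS libraries, against 445, 477, 373, 593 and 473 CPM in the Control libraries in this table (log2 fold change −0.01, SE 0.23, adjusted p = 0.993 by edgeR). As in the selected table, MSUS 2, MSUS 14 and Control 9 were its highest libraries and MSUS 8 and Control 7 its lowest. Gstm1 had 67.4, 48.1, 105, 63.8 and 92.5 CPM in the MSUS libraries, against 85.8, 109, 82.0, 104 and 87.2 CPM in the Control libraries (log2 fold change −0.27, SE 0.24, adjusted p = 0.699 by edgeR), and MSUS 4 was lowest. Gstm2 had 57.1, 53.7, 85.0, 63.8 and 80.1 CPM in the MSUS libraries, against 102, 82.1, 82.0, 67.7 and 73.8 CPM in the Control libraries (log2 fold change −0.21, SE 0.23, adjusted p = 0.759 by edgeR). The mean of the Control libraries was the higher one in both, and the ranges overlapped.

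Gstm7 had 51.9, 53.7, 56.7, 31.9 and 66.3 CPM in the MSUS libraries, against 53.6, 51.7, 52.2, 85.8 and 46.1 CPM in the Control libraries (log2 fold change −0.12, SE 0.25, adjusted p = 0.881 by edgeR), with Control 9 far above the rest. Prdx1 had 25.9, 53.7, 44.5, 31.9 and 63.5 CPM in the MSUS libraries, against 56.3, 73.0, 33.6, 60.9 and 52.3 CPM in the Control libraries (log2 fold change −0.24, SE 0.26, adjusted p = 0.759 by edgeR). Txnip had 46.7, 82.0, 58.7, 63.8 and 71.8 CPM in the MSUS libraries, against 102, 69.9, 93.2, 70.0 and 60.5 CPM in the Control libraries (log2 fold change −0.24, SE 0.24, adjusted p = 0.732 by edgeR). Overlap of the groups was wide in each of these genes, and MSUS 2 was the lowest library for Prdx1 and Txnip. The values rested on few counts, with lowest counts of 6.5 for Gstm7, 5.10 for Prdx1 and 8.57 for Txnip.

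Sod1 had 10.4, 22.6, 24.3, 63.8 and 38.7 CPM in the MSUS libraries, against 40.2, 39.5, 44.7, 36.1 and 32.8 CPM in the Control libraries (log2 fold change −0.25, SE 0.30, adjusted p = 0.777 by edgeR), on 1.5 to 32.5 counts per library. The Control values lay close together and the MSUS values on both sides of them, from MSUS 2 to MSUS 8. Sod2 had 20.8, 14.1, 56.7, 21.3 and 51.1 CPM in the MSUS libraries, against 37.5, 42.6, 52.2, 37.2 and 51.3 CPM in the Control libraries (log2 fold change −0.25, SE 0.31, adjusted p = 0.781 by edgeR). Counts of Sod2 ran from 4 to 50 per library. The 2 positive members were Gstm5 and Prdx5, on 4 to 36.6 and 2.25 to 24.75 counts per library. Gstm5 had 36.3, 36.8, 42.5, 21.3 and 41.4 CPM in the MSUS libraries, against 24.1, 24.3, 44.7, 24.8 and 37.9 CPM in the Control libraries (log2 fold change +0.28, SE 0.25, adjusted p = 0.714 by edgeR). Prdx5 had 10.4, 36.8, 32.4, 31.9 and 29.0 CPM in the MSUS libraries, against 37.5, 21.3, 29.8, 23.7 and 25.6 CPM in the Control libraries (log2 fold change +0.13, SE 0.27, adjusted p = 0.877 by edgeR), with 1 low library, MSUS 2, among values of 21.3 to 37.5 CPM.

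Differences between animals were then followed within and between the tables. Gpx3 was the 1 member of the 10 tested in both tables whose level in an animal in 1 table went with its level in the other at an adjusted p under 0.05: Pearson r was 0.887 over 10 animals (permutation p = 0.001, adjusted p = 0.01) and Spearman rho 0.879 (permutation p = 0.00151, adjusted p = 0.0151). Without the 2 animals farthest from the median r was 0.825, and without Control 9, Control 11 and MSUS 14 it was 0.817. As a share of protein-coding counts, r was 0.757 for Gpx3 (permutation p = 0.00793, adjusted p = 0.0359; rho 0.806, adjusted permutation p = 0.0686), and on that scale Txnip (r 0.754) and Gstm7 (r 0.762) also passed by Pearson (both at an adjusted permutation p = 0.0359), but not by Spearman. The other 9 genes did not pass on the CPM scale, with r between −0.462 for Sod1 and 0.572 for Txnip. In the unselected table Gpx3 averaged 236 counts per library, and these 9 genes from 13.3 (Prdx5) to 42.7 (Gstm1). The part of this depth in the correlations was not tested. The 2 values of an animal come from 1 library read again, so this relation is between runs of the same RNA.

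Among the 8 most abundant members of the selected table, a total of 28 pairs were compared, and 5 passed by both Pearson and Spearman in a permutation test over the 10 animals with Benjamini-Hochberg adjustment over the 28. Prdx1 with Txnip and Gpx3 with Txn1 passed by Spearman only (rho −0.842 and 0.770). Gpx3 ran against Txnip (r −0.916, permutation p = 0.00065, adjusted p = 0.0091; rho −0.915, permutation p = 0.00058, adjusted p = 0.00812; r −0.904 without the 2 farthest animals). Prdx1 ran with Txn1, its electron donor (r 0.908, permutation p = 0.0002, adjusted p = 0.0056; rho 0.939, permutation p = 0.00016, adjusted p = 0.00448; 0.964 without the 2 farthest). Gstm7 ran with Prdx1 (r 0.846, adjusted permutation p = 0.0184; rho 0.806, adjusted permutation p = 0.0354; 0.773 without the 2 farthest) and with Txn1 (r 0.826, adjusted permutation p = 0.0121; rho 0.903, adjusted permutation p = 0.00868; 0.772). Gpx3 also ran with Prdx1 (r 0.798, adjusted permutation p = 0.0394; rho 0.830, adjusted permutation p = 0.0268; 0.691). The plot of Gpx3 by animal shows both groups along 1 line.

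As shares of protein-coding counts, r was −0.833 for Gpx3 with Txnip, 0.920 for Prdx1 with Txn1, 0.856 for Gstm7 with either, and 0.817 for Gpx3 with Prdx1. Without Control 9, Control 11 and MSUS 14, which had the highest protein-coding shares, 4 of 5 had an unadjusted permutation p under 0.05, and Gpx3 with Prdx1 did not (r 0.620, permutation p = 0.142). The protein-coding share of counts itself went with Prdx1 at r 0.760 (permutation p = 0.0106, adjusted p = 0.0849; rho 0.758, adjusted permutation p = 0.12; r 0.512 without the 2 farthest), and r was 0.645 for Txn1, −0.601 for Txnip, 0.554 for Gpx3 and 0.392 for Gstm7, none past the adjusted threshold over 8 relations. Its part in these relations was not tested further. In the unselected table, none (0) of the 5 pairs passed: r was −0.433 for Gpx3 with Txnip (adjusted permutation p = 0.354), 0.148 for Prdx1 with Txn1, 0.479 and 0.498 for Gstm7 with Prdx1 and Txn1, and 0.238 for Gpx3 with Prdx1. Apart from Gpx3, the genes of these pairs averaged only 13.8 (Txn1) to 33.65 (Txnip) counts per library there.

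**Figure D4:**
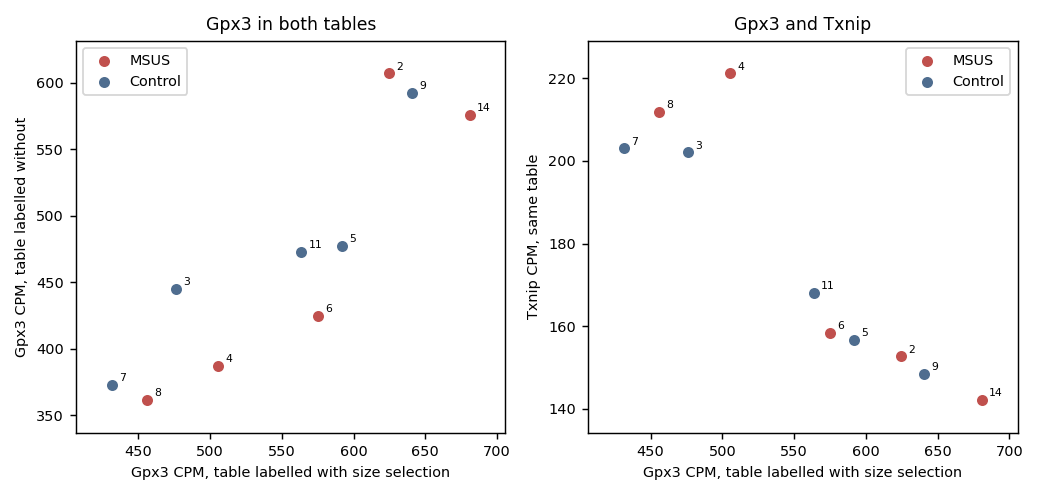
Left, Gpx3 CPM of each animal in the unselected table (vertical) against the selected table (horizontal), each scaled within its table. Right, Txnip CPM against Gpx3 CPM in the selected table. MSUS and Control animals are coloured and numbered, and both groups spread along the same lines (r 0.887 and −0.916, 10 animals).

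Over 10 libraries of the selected table, the 3 protein-coding features of 5160 with the pattern most like that of Gpx3 in log2 CPM were Mme, a membrane metallopeptidase (r 0.945), Phf8 (r 0.922) and Ift20 (r 0.919). For Gstm1 they were Pim3 (r 0.935), Lrp2 (r 0.868) and Spint2 (r 0.863), and for Gpx5 Actl6a (r 0.873), Patz1 (r 0.858) and Ndufv3 (r 0.844). In the unselected table, with 240 such features, the gene most like Gpx3 was Prrc2a (r 0.969), followed by Wfdc15b and Wfdc16. The lists of the tables shared no name, but they were drawn from 5160 and 240 features. Most candidates of the selected table could therefore not appear in the other list. These values are a description.

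The tables were compared because they hold the same 10 libraries read in 2 ways. In a joint edgeR fit 2219 of 5725 features (38.8%) differed, 1074 higher (18.8%) and 1145 lower (20%) in the unselected table. This fit left out the pairing by animal. Each label stands for 1 run, so its p-values do not measure variation between runs. With the animal as a block 1182 features were higher and 1247 lower, and Gpx3 was at +0.66 (SE 0.083). Of 35 tested members 3 were higher, Txndc5, Gpx3 and Gpx4, and 19 lower, with a median log2 fold change of −0.41 beside −0.06 for all features; 9 of the 35 were positive, against 46% of features. With library size only, which moved the median of all features to −1.02, 0 members were higher and 30 lower, with a median of −1.38. Without Control 9, Control 11 and MSUS 14 the joint fit called 2 members higher and 11 lower.

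Glutathione peroxidases were high in the unselected table: 2 of 3 tested members rose and 0 fell, beside 18.8% of all features higher and 20% lower. With library size only 0 of 3 were positive, 0 were called higher and 3 of 3 lay above the median of all features. Gpx3 stood at 456, 630.2 and 855 CPM in the unselected table, against 312, 417 and 505 CPM in the selected table (lowest, median and highest of 10 libraries). It was higher in 10 of 10 animals, with ranges that met only between 456 and 505 CPM (edgeR, log2 fold change +0.67, SE 0.15, adjusted p = 0.000657). The call rests on the TMM scaling and the filter: Gpx3 was at −0.32 with library size only and at +0.01 without a filter (edgeR adjusted p = 0.180 and 0.975), where the median of all features was −1.02 and −0.33. As a share of the members' counts it was 30.0 to 51.2% in the unselected and 16.6 to 22.8% in the selected table, without overlap. Gpx4 stood at 14.2, 31.2 and 52.6 CPM in the unselected table, against 18.1, 23.4 and 29.5 CPM in the selected table (lowest, median and highest of 10 libraries) (edgeR, log2 fold change +0.43, SE 0.15, adjusted p = 0.0209), and 58.8% of its 20-base stretches also occur in other genes, mostly a pseudogene. Its call was lost without MSUS 4 (+0.37, edgeR adjusted p = 0.0651), without MSUS 14 (+0.40, 0.0643) and without Control 9, Control 11 and MSUS 14 together (+0.43, 0.185), with a fold of about the same size. With library size only Gpx4 was at −0.52 and without a filter at −0.20.

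Peroxiredoxins and the thioredoxin system lay on the other side. Of 5 tested peroxiredoxins 4 fell. Of the 5 tested thioredoxins, reductases and relatives (Txn1, Txn2, Txnrd1, Txnip and Txnl1) 4 fell. In either group 0 rose, while of all features 20% were called lower and 18.8% higher. With library size only 5 and 4 fell, where 4134 of all 5725 features did. Prdx1 stood at 36.5, 75.2 and 92.8 CPM in the unselected table, against 119.8, 152 and 212 CPM in the selected table (lowest, median and highest of 10 libraries) (edgeR, log2 fold change −1.13, SE 0.16, adjusted p = 1.11e-06). Prdx5 stood at 14.6, 38.0 and 51.8 CPM in the unselected table, against 56.7, 84.1 and 98.8 CPM in the selected table (lowest, median and highest of 10 libraries) (edgeR, log2 fold change −1.07, SE 0.14, adjusted p = 4.73e-07). Txn1 stood at 23.2, 37.7 and 47.4 CPM in the unselected table, against 70.2, 85.7 and 98.3 CPM in the selected table (lowest, median and highest of 10 libraries) (edgeR, log2 fold change −1.17, SE 0.13, adjusted p = 1.40e-08). Each was lower in 10 of 10 animals, and these were the 3 members whose ranges did not overlap between tables, against 5.19% of features lower and 6.5% higher. Txnl1, a thioredoxin-like protein of the proteasome, was at −0.83 (SE 0.19), Txnrd1 at −0.54 (SE 0.18) and Txnip at −0.40 (SE 0.13), all called, and mitochondrial Txn2 at +0.36 was not. With protein-coding features only 15 members in place of 19 were lower, and the calls of Txnrd1 (edgeR adjusted p = 0.0551), Txnip (0.0635), Prdx3 (0.111) and Gstp2 (0.138) were lost.

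Thioredoxin-domain proteins were split, with 1 of 4 called higher and 2 lower, beside 18.8% of all features higher and 20% lower. Txndc5 stood at 0, 16.3 and 35.6 CPM in the unselected table, against 4.60, 8.61 and 12.8 CPM in the selected table (lowest, median and highest of 10 libraries), higher in 9 of 10 animals (edgeR, log2 fold change +1.15, SE 0.24, adjusted p = 0.000394). Txndc17, which reduces the dynein light chain, stood at 0, 6.52 and 15.6 CPM in the unselected table, against 9.56, 13.6 and 18 CPM in the selected table (lowest, median and highest of 10 libraries), lower in 9 of 10 animals (edgeR, log2 fold change −1.02, SE 0.29, adjusted p = 0.00598). Both are rare: after rounding, Txndc5 was at 0 in 1 unselected library and Txndc17 in 3. With library size only Txndc5 was at +0.17 and without a filter at +0.53 (edgeR adjusted p = 0.587 and 0.0928), no longer called, and without Control 9, Control 11 and MSUS 14 Txndc17 was at −1.13 with an edgeR adjusted p of 0.0653.

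Of 12 glutathione S-transferases 7 fell and 0 rose with TMM scaling, beside 20% of all features lower and 18.8% higher. Gsta4 (−0.98), Gsta3 (−0.77), Gstm7 (−0.72), Gstm1 (−0.70), Gstp1 (−0.68), Gstp2 (−0.47) and Gstm2 (−0.40) were those called. Sod1 was at −0.88 (SE 0.15, edgeR adjusted p = 1.78e-05) and Sod2 at −0.51 (SE 0.16), both called, while Cat at −0.23 (SE 0.31) was not. Gclm (−0.25), Gclc (−0.22) and Gsr (+0.13) did not pass. Between the tables the log2 fold change went with exon length at a Spearman rho of 0.236 over the 35 members and 0.226 over 4088 protein-coding features, given as a description. Members of up to 1500 bases had a median of −0.47 (15 members) and longer ones −0.36 (20 members), beside −0.31 and −0.05 for protein-coding features of these lengths.

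**Figure D5:**
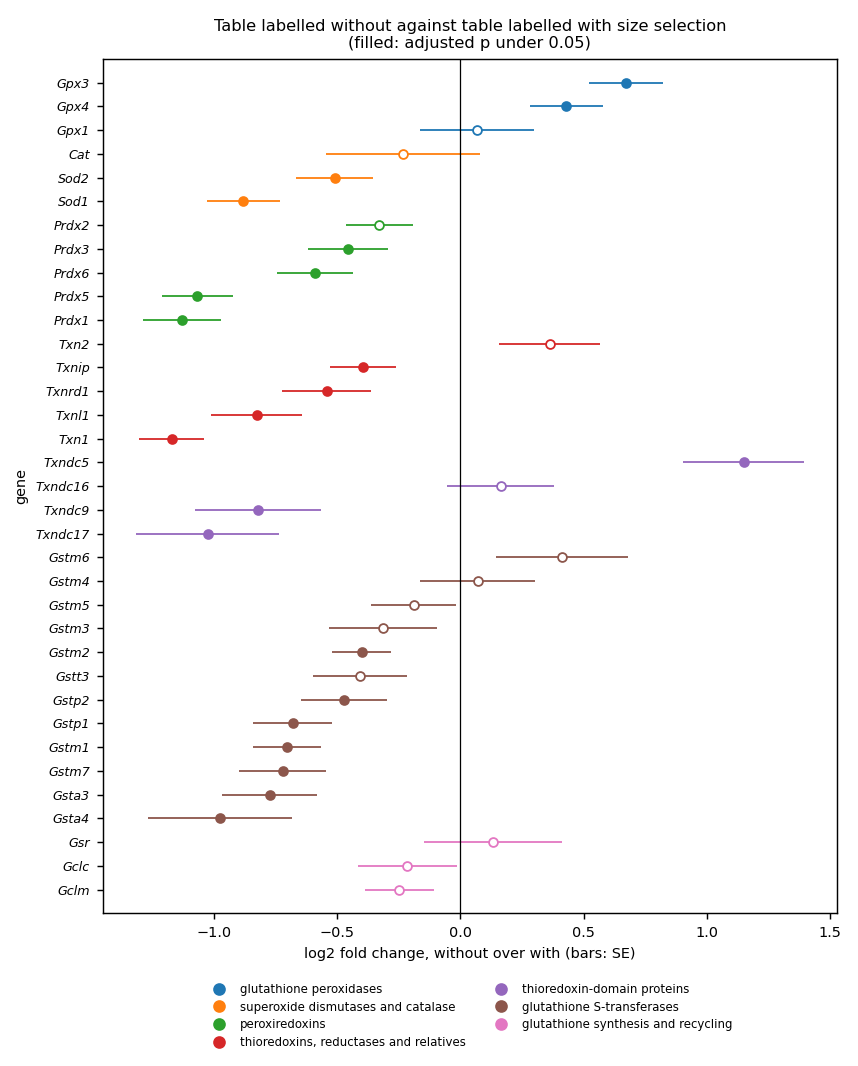
Log2 fold change of the unselected over the selected table for the 35 tested members, with 1 SE as a bar, ordered by role and with filled circles for an adjusted p under 0.05. The 3 members higher in the unselected table are Txndc5, Gpx3 and Gpx4, and the 19 lower ones include each called peroxiredoxin and glutathione S-transferase.

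The other genes of the pathway were taken from a list of 65: regulators of NRF2, cystine transport, NADPH supply, glutaredoxins, methionine sulfoxide reductases and others. In the MSUS contrast of the selected table, a total of 45 were tested and 0 passed by edgeR. At an unadjusted p under 0.05 there were 2 of the 45, against 3.45% of all features higher and 2.37% lower. They were Msrb3, a methionine sulfoxide reductase (+0.52, SE 0.22), and Sephs2, which makes the selenium donor for selenoproteins (+0.44, SE 0.20). A total of 6 were tested in the unselected table and 0 passed. Between the tables, Qsox1 alone (1 of 30) rose in the unselected one (+0.38, a sulfhydryl oxidase), and 14 fell. Of all features 18.8% were called higher and 20% lower. The largest falls were those of Nfe2l2 itself (−1.22, SE 0.24, edgeR adjusted p = 0.000183) and Cth, which makes cysteine (−1.06, SE 0.22), and Sqstm1 (−0.85), Park7 (−0.74) and Idh1 (−0.71) fell as well. Keap1, the inhibitor of NRF2, was at +0.36 (SE 0.27) and did not pass.

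Counts of some members can include reads of near copies. In the GENCODE vM21 annotation 95.8% of the 20-base exon stretches of Gsta1 occur in other genes, 68.0% of those of Gsta2, 50.2% of Sod1, 44.2% of Gstm3, 38.7% of Gstm1, 27.9% of Gstm2 and 22.4% of Prdx1, and 14 of the 62 members have an exon that overlaps another gene. Values for these genes are uncertain to that extent, and 44 of the 62 members had counts that were not whole in 5 or more libraries of the selected table. Gpx3 shares 1.93% and Txnip 0.957%, though an exon of Txnip overlaps the antisense gene Gm15441, and without stated strand use in counting their reads cannot be told apart.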

How the data were processed

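Small RNA libraries of cauda epididymosomes from 5 MSUS and 5 Control males were analysed as 2 tables of 10 libraries. The authors deposited estimated counts for each annotated RNA, without normalization. STAR, edgeR and GRCm38 are named in the submitters' processing notes, and no source used here says how reads were assigned. Labels do not say that vesicle preparations came from separate litters.

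Estimated counts were rounded to whole numbers. Features were kept by filterByExpr, scaled by TMM over all features and tested with robust quasi-likelihood fits in edgeR 4.0.16 (R 4.3.3), with Benjamini-Hochberg adjustment over all features and a threshold of 0.05. MSUS and Control were compared within each table, and the tables in a joint fit with condition as covariate. CPM values use TMM-scaled library sizes. Totals per library, which set the precision, are given with the results. Correlations used 100000 permutations. Members' lengths and overlaps came from GENCODE vM21, and the likeness to other genes from log2 CPM with a pseudocount of 1 over features with a mean of at least 20 counts.

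Genes named with every library's value were the 8 most abundant in each table, the 3 with the smallest p in each direction, and the most abundant tested member of each role. Between tables they were the 4 called members with the largest change in each direction. The members and lists were chosen with earlier results of these data known. Alternatives were library size only, RLE factors, protein-coding features only, other filters, unrounded counts, DESeq2 1.42.0, left-out libraries and the animal as a block. The edgeR fits were tested on counts simulated with a fixed spread, in which features of at least 10 counts on average were changed. At a log2 change of 1 they called 26 of 100 in the selected and 54 of 100 in the unselected MSUS contrast. At a log2 change of 2 they called 84 and 85 of 100. For the contrast of the tables the calls were 55 and 77 of 100. The changed features were 100 per size among 10998, 1075 and 5725 simulated ones, in that order. These shares differ, so the rates do not compare the power of the contrasts. Of unchanged features 5 of 10798, 6 of 875 and 4 of 5525 were called, in the same order. The same animals stand in both tables by the labels: deviations from group means over 2973 features correlated at 0.0547 to 0.228 between an animal's own libraries and at most 0.0967 with another animal, and 8 of 10 animals correlated best with their own.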

Additional observations from a re-analysis of the deposited data

Results flagged for a closer look

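Of 60 groups of 5 libraries examined for a value far from the others, 1 had one. Gstm7 in Control 9 of the unselected table stood at 85.8 CPM, against 53.6 CPM in the nearest other Control library, a gap of 0.811 of the group's range where 0.71 is the limit for 5 samples. Chance alone gives such a value in about 1 in 20 groups.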

How the results depend on the processing

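Under the alternatives tried 0 members were called between MSUS and Control in either table. In the selected table, library size only gave 3 features lower and a member median of −0.57, and turned Gpx3 to −0.46, Gpx5 to −0.13, Gstm2 to −0.52, Gstm7 to −0.43, Gstp1 to −0.34, Gstp2 to −0.31, Sod1 to −0.48 and Txnip to −0.61. Without a filter 40 features were higher and 8 lower, with Gpx3 at −0.00450, Gstm2 at −0.0505 and Txnip at −0.0942, and DESeq2 called 32 higher and 1 lower. Protein-coding features only gave Txn1 +0.0155. Without Control 9, Control 11 and MSUS 14, Gstm1 was +0.0166, Prdx1 +0.0446, Txn1 +0.0471 and Txnip −0.00969. Leaving out 1 library gave Gpx3 −0.000179 to 0.15, Gstm2 −0.00536 to 0.0905, Prdx1 −0.15 to 0.0868, Txn1 −0.0728 to 0.0314, Txnip −0.0806 to 0.0805 and 0 to 2 features lower. In the unselected table, library size only gave 1 feature lower, a median of −0.48 and Prdx5 −0.15. Gpx3 was +0.0032 with RLE factors, +0.21 with protein-coding features only, +0.000475 by DESeq2 and +0.0200 with a mean of at least 10 counts. Protein-coding features only also gave Gstm2 +0.0198 and Gstm7 +0.0687, and 2 features were higher without the 3 libraries. Leaving out 1 library gave Gpx3 −0.12 to 0.0927 and Gstm7 −0.24 to 0.11. Between the tables, library size only called 430 features higher and 4134 lower, with 0 and 30 members, a median of −1.38, Gpx3 at −0.32 and Gpx4 at −0.52. No filter gave 2638 and 5544 features, 0 and 30 members, a median of −0.95, Gpx4 at −0.20, and Gpx3 at +0.00814 and Txndc5 at +0.53, both no longer called. Protein-coding features only gave 540 and 492 features, with 3 and 15 members, and leaving out the 3 libraries 653 and 604, with 11 members lower. Without length correction Sod1 ranked 7, Txn1 8, Prdx1 3 and Prdx5 9. The cause of these changes was not tested.

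With the animal as a replicate block, the tables differed for 3 members higher and 19 lower, with a median of −0.40, and 1182 features higher and 1247 lower. No paired analysis was possible between MSUS and Control because they share no animal number. With lower totals and lower protein-coding shares, the unselected table had 10 members that passed the filter.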
